A study of Mus musculus with 27 samples.

Results

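Nuclear receptors are transcription factors that are switched by small lipid-soluble molecules, and the 8 genes described here encode receptors that act in hepatocytes, the main cells of the liver. The members were taken by symbol from the gene list of the expression table, namely Hnf4a, Rxra, Nr1i3, Nr1i2, Nr1h3, Nr5a2, Esr1 and Thrb. All 8 were found among the 21823 genes of the table, and all 8 were among the 12952 genes that passed the filter on low values (an expression value of at least 1 in at least 3 libraries). The values come from RNA sequencing of laser-microdissected zones of the liver lobule, the repeating unit in which blood flows from the portal vein (zone 1) through the middle (zone 2) to the central vein (zone 3). The mice were wild-type females of the strain C57BL/6, in the methods of the study C57BL/6N, either non-pregnant (NP) or pregnant at 8 days post-coitum (dpc8, mid-gestation) or 16 days post-coitum (dpc16, late gestation). They were adult according to the methods of the study, the labels give no age, and neither says which zones came from the same animal. With 3 libraries for every zone at every stage, there are 9 groups and 27 libraries.

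Hnf4a encodes HNF4alpha, which binds DNA as a homodimer and maintains the hepatocyte programme. Rxra encodes the retinoid X receptor alpha, the partner with which the products of Nr1i3 (CAR), Nr1i2 (PXR), Nr1h3 (LXRalpha) and Thrb (the thyroid hormone receptor beta) bind DNA. CAR and PXR respond to foreign compounds and bile acids and induce drug-metabolizing enzymes, LXRalpha senses oxysterols and drives fatty acid synthesis and cholesterol disposal, and the thyroid hormone receptor beta is the main receptor of thyroid hormone in the liver. Nr5a2 encodes LRH-1, which binds DNA as a monomer and acts on bile acid synthesis, and Esr1 encodes the estrogen receptor alpha. Many functions of hepatocytes differ along the lobule, with gluconeogenesis and urea synthesis towards the portal vein and drug metabolism and glutamine synthesis towards the central vein.

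Expression was given as FPKM, fragments scaled to the length of the transcript and the size of the library, so that levels can be set side by side between genes. The FPKM sum per library was 499866 to 988500, and 10581 to 11997 genes reached an FPKM of 1. The depth estimated from the steps between low values had a median of 16.37 M (mega) reads and ranged from 7.48 M to 33.35 M, and on this estimate Nr1i2, whose single transcript is 2553 bases long, rests on 273 to 2015 reads in a library. The zone labels were checked on marker genes. In zone 1 against zone 3, averaged over the stages, 10 of 10 periportal markers were higher and 10 of 10 pericentral markers were lower, with median log2 fold changes of 5.39 and -4.83. The 9 hepatocyte markers tested summed to between 48250 and 270000 FPKM in a library.

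The mice are labelled female, yet 4 Y-linked genes summed to 7.92 to 23.2 FPKM in 6 of the libraries and to at most 2.97 in the other 21. These 6 Y-positive libraries are replicate 1 of zone 1 and replicate 2 of zone 3 in NP mice, replicate 1 of zone 1 and replicate 2 of zone 2 in dpc8 mice, and replicate 3 of zone 2 and of zone 3 in dpc16 mice. They also stood apart in the 12 connective tissue and smooth muscle markers, which summed to 1056 to 4979 FPKM in them and to 85.7 to 604.4 in the others, with no marker listed at 0 in every library. The 8 receptors together amounted to 205 to 452.8 FPKM in the 6 libraries and to 451.3 to 841.1 in the others. Of the 48 values that the 6 libraries give for the 8 receptors, 38 were the lowest of their group of 3, 3 were in the middle and 7 were the highest. For Hnf4a and Rxra all 6 were the lowest. The mean log2(FPKM + 1) of the hepatocyte markers was also lower in the 6 libraries, at 10.98 to 11.64 against 11.67 to 13.01. In tissue RNA, a smaller share of hepatocyte RNA in a library and less receptor RNA per hepatocyte cannot be told apart. The labels do not explain the Y-linked RNA, and its source was not tested. The part of these libraries in each result was taken up by repeating the tests without them.

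**Figure D1:**
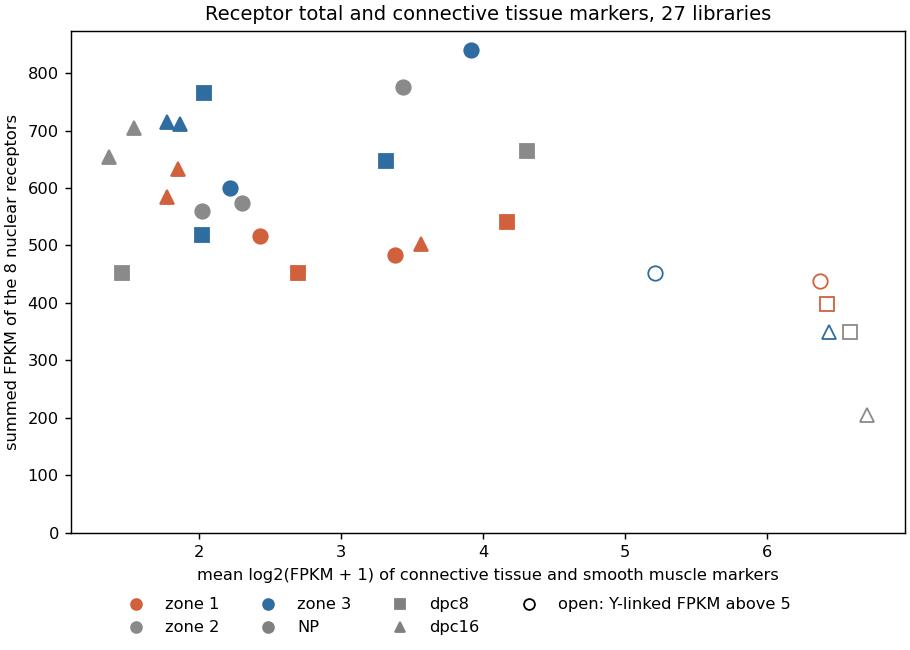
Summed FPKM of the 8 receptors (vertical axis) against the mean log2(FPKM + 1) of the connective tissue and smooth muscle markers (horizontal axis), 1 point per library, coloured by zone and shaped by stage. The 6 open points, the libraries with Y-linked FPKM above 5, lie at 5.215 to 6.705 on the horizontal axis and at 205 to 452.8 FPKM, against 1.365 to 4.307 and 451.3 to 841.1 for the 21 filled points.

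The receptors differed in level. Over the 27 libraries the median FPKM was 177.1 for Hnf4a, 119.1 for Rxra and 79.1 for Nr1i3. It was 46.6 for Nr1h3, 28.6 for Nr5a2, 25.6 for Thrb, 21.2 for Nr1i2 and 19.8 for Esr1. Hnf4a was above 97.8% of the genes in the table and Esr1, the lowest of the 8, above 83.5%. No receptor was absent from any library: the lowest single value was 7.18 FPKM, for Esr1 in dpc8 zone 2 replicate 2. The means of the 9 groups spanned 1.47-fold for Nr5a2, 1.62-fold for Rxra, 1.63-fold for Hnf4a and 1.67-fold for Nr1h3. The span was 2.15-fold for Nr1i2, 2.81-fold for Esr1, 2.94-fold for Nr1i3 and 2.96-fold for Thrb. When the 9 means of a gene were put in order, neighbours in that order lay within the larger of their SDs in every case except Thrb, for which 2 of 8 gaps were wider, that below NP zone 2 at the top and that above dpc16 zone 2 at the bottom.

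**Figure D2:**
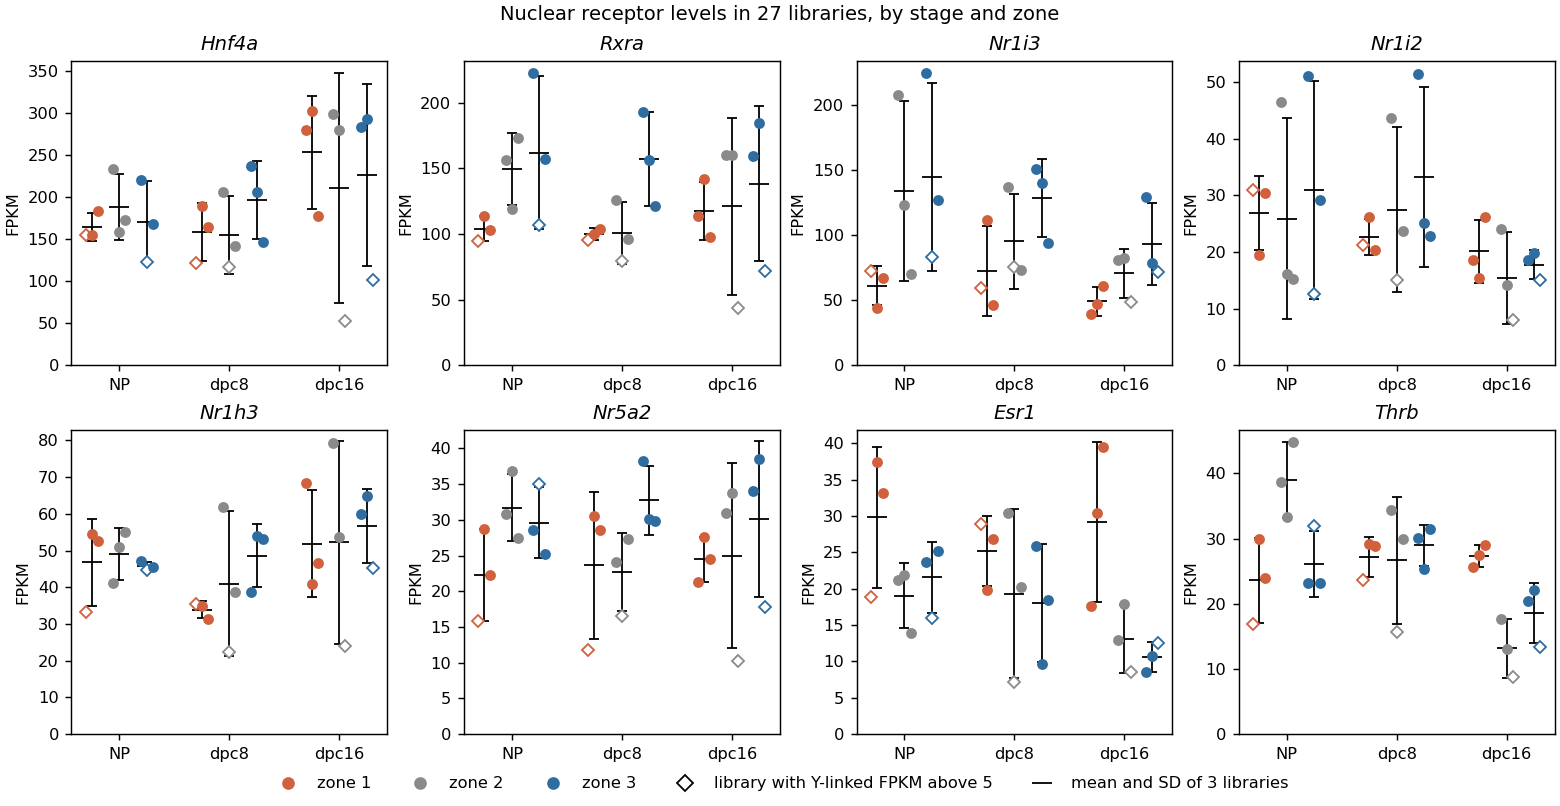
FPKM of the 8 receptors (vertical axes, from 0, each with its own range) in 27 libraries, by stage (horizontal axis) and zone (colour), with the mean and SD of the 3 libraries of each group and open diamonds for the 6 libraries with Y-linked FPKM above 5. By group means Nr1i3 is higher in zone 3 than in zone 1 at each stage and Esr1 higher in zone 1 at dpc16, differences that did not pass at a single stage, and Thrb lies between 8.75 and 17.7 FPKM in zone 2 at dpc16.

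The study asked which genes are expressed by zone and how this changes in pregnancy. Zone 1 was therefore compared with zone 3 for each receptor. Of the 8, Nr1i3 was the one that passed the test when the stages were averaged, at 0.51 times the zone 3 level in zone 1. Esr1 was the one with the largest difference in the other direction and did not pass. The other 6 did not pass either.

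Nr1i3 (ENSMUSG00000005677.14, mm10 chr1:171213970-171220701, plus strand) encodes CAR, the receptor that induces Cyp2b enzymes in response to drugs such as phenobarbital. In NP mice its FPKM was 72.4, 44.5 and 67.3 in zone 1, 208.1, 123.6 and 70.6 in zone 2 and 224.8, 83.3 and 127 in zone 3. In dpc8 mice the values were 59.3, 111.9 and 46.4 in zone 1, 137.2, 75.7 and 73.2 in zone 2 and 151.3, 140.4 and 94.3 in zone 3. In dpc16 mice they were 39.3, 47.3 and 61.3 in zone 1, 80.9, 82.6 and 48.8 in zone 2 and 129.8, 79.1 and 71.9 in zone 3. All zone 3 values were above all zone 1 values in NP and dpc16 mice, while in dpc8 mice zone 1 replicate 2 reached into the range of zone 3. The group means rose from zone 1 over zone 2 to zone 3 at each stage, from 61.4 ± 14.9 to 134.1 ± 69.4 and 145 ± 72.5 FPKM in NP mice, for example (SD, n = 3 each).

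Averaged over the stages, the log2 fold change of Nr1i3 in zone 1 against zone 3 was -0.97 ± 0.24 (SE), a ratio of 0.51, with an adjusted p of 0.0145 by limma. This was 1 of the 8 receptors, where 5.59% of all genes tested passed in this comparison. Stage by stage the difference was -1.14 (NP), -0.89 (dpc8) and -0.88 (dpc16), and the limma adjusted p-values were 0.33, 0.382 and 0.598. The averaged difference was between -1.15 and -0.90 in 10 other settings, the largest without the Y-positive libraries, and passed in all of them and in 18 of 18 leave-one-out fits, each of which drops 1 library. Against zone 2, zone 1 was lower by a log2 fold change of -0.65 with an adjusted p of 0.448, and zone 2 against zone 3 gave -0.33 with an adjusted p of 0.768 by limma, so that a step between neighbouring zones was not resolved. At the single stages 0 receptors passed, while 1, 1 and 2 had an unadjusted p under 0.05 in NP, dpc8 and dpc16 mice, where 1.34%, 1.61% and 1.55% of all genes passed. Exons of Nr1i3 overlap those of Tomm40l on the opposite strand, and the sources used here do not give whether strand was used in counting. Tomm40l was 1.175 to 11.4 FPKM and went the other way, by 0.96 on the log2 scale (limma adjusted p 0.0442), a call kept in 7 of 10 other settings and 4 of 18 leave-one-out fits.

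Each promoter window considered here is the 250 bases before a start site in RefSeq (GRCm38.p6), and the 8 genes have 14 such windows. The sequence before the Nr1i3 start is shown because this gene carries the zone difference, and those before the starts of Thrb because this gene carries the difference at dpc16 described further on. They are written 5′ to 3′ on the strand of the gene, and capitals mark the letters of 3 short motifs on either strand: AGGTCA, the hexamer that many nuclear receptors bind, CTTTGA, the core bound by TCF factors of Wnt signalling, and GTTAAT, the core bound by HNF1 factors. Expression was measured per gene, so the start sites of Thrb are not told apart in the values.
Nr1i3, chr1:171213720-171213969, plus strand: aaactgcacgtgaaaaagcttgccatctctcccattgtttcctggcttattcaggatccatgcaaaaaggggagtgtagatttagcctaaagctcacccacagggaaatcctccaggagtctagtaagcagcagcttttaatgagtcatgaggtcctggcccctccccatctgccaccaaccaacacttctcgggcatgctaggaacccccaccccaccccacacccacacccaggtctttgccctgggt
Thrb upstream start, chr14:17660710-17660959, plus strand: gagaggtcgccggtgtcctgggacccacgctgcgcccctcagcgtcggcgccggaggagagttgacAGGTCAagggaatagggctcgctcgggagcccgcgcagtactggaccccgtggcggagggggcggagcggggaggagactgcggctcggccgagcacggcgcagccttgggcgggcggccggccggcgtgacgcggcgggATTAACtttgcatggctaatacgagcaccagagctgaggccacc
Thrb downstream start, chr14:17981394-17981643, plus strand: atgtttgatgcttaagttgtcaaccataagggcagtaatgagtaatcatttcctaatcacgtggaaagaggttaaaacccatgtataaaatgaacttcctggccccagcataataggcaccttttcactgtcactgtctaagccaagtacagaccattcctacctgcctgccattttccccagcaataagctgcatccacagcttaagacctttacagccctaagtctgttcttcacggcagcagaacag

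The window of Nr1i3 holds none of the 3 motifs. The upstream window of Thrb holds AGGTCA once and ATTAAC, the reverse of GTTAAT, once, and has 71.6% G and C, and the downstream one has 44.0% G and C and none of the motifs. Over the 14 windows, AGGTCA or its reverse was found in 3 (the second of Rxra, the first of Nr5a2 and the upstream one of Thrb), where 14.0% of 32851 windows of all genes hold it. CTTTGA was found in 1, that of Nr1i2, where 13.8% of all windows hold it, and GTTAAT in 3, where 6.43% hold it. The windows with GTTAAT are the second of Hnf4a, the first of Nr5a2 and the upstream one of Thrb. These are matches of letters only.

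Esr1 (ENSMUSG00000019768.16, chr10:4611593-5005614, plus strand) had its highest values in zone 1. In NP mice it was 18.9, 37.4 and 33.1 FPKM in zone 1, 21.3, 21.9 and 13.9 in zone 2 and 23.6, 16.03 and 25.1 in zone 3. In dpc8 mice it was 28.9, 19.8 and 26.8 in zone 1, 30.4, 7.18 and 20.3 in zone 2 and 25.9, 9.70 and 18.5 in zone 3. In dpc16 mice it was 17.6, 30.5 and 39.5 in zone 1, 12.9, 17.9 and 8.53 in zone 2 and 8.56, 10.7 and 12.6 in zone 3. The zones overlapped in NP and dpc8 mice, and at dpc16 all zone 1 values were above all zone 3 values. The log2 fold change in zone 1 against zone 3 was 0.42 (NP), 0.54 (dpc8) and 1.32 ± 0.42 (dpc16; SE), the last a ratio of 2.50 with an adjusted p of 0.179 by limma.

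Averaged over the stages, the difference of Esr1 was 0.76 ± 0.24 (SE), a ratio of 1.69, with an adjusted p of 0.0757 by limma, which missed the threshold of 0.05. Zone 2 was close to zone 3, with a log2 fold change of 0.02 between them (95% confidence interval -0.49 to 0.52), and zone 1 was above zone 2 by 0.74, with an adjusted p of 0.305 by limma. The averaged difference passed in 6 of 10 other settings: with array weights (limma adjusted p 0.00754), with only the groups compared (0.0384), with stage and replicate number as a random block (0.0274), with the connective tissue covariate (0.0273), with the hepatocyte marker covariate (0.0492) and without the Y-positive libraries, at 0.80 (0.0278). It also passed in 3 of 18 leave-one-out fits, those without replicate 1 of NP zone 1, of dpc8 zone 3 or of dpc16 zone 1. At dpc16 alone it passed without the Y-positive libraries at 1.44 (limma adjusted p 0.0399) and with array weights at 1.35 (0.023).

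Rxra (ENSMUSG00000015846.14, chr2:27676440-27762957, plus strand), the common partner, was lower in zone 1 by group means at each stage. In NP mice its FPKM was 94.9, 114.1 and 103.3 in zone 1 and 222.8, 106.6 and 156.9 in zone 3. In dpc8 mice it was 95.5, 100.1 and 104.2 in zone 1 and 192.9, 156.8 and 121.7 in zone 3, and in dpc16 mice 113.9, 141.6 and 98.1 against 159.5, 184.3 and 71.8. The groups did not overlap in dpc8 mice and overlapped at the other stages, where the lowest zone 3 value was in each case a Y-positive library. The averaged log2 fold change was -0.45 ± 0.23 (SE) with an adjusted p of 0.377 by limma. It passed in 3 of 10 other settings: without the Y-positive libraries at -0.64 (limma adjusted p 0.00516), with array weights at -0.51 (0.0262) and with the hepatocyte marker covariate at -0.62 (0.00548).

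The remaining receptors showed no difference between zones 1 and 3 that passed the test. The averaged log2 fold changes were -0.40 ± 0.22 for Nr5a2 (ENSMUSG00000026398.14, chr1:136842571-136960448, minus strand), -0.21 ± 0.20 for Nr1h3 (ENSMUSG00000002108.10, chr2:91184061-91202834, minus strand) and -0.11 ± 0.28 for Nr1i2 (ENSMUSG00000022809.4, chr16:38248323-38294824, minus strand; SE). Nr5a2 passed in 1 of 10 other settings, with the hepatocyte marker covariate, at -0.58 (limma adjusted p 0.002). For Hnf4a (ENSMUSG00000017950.16, chr2:163506808-163572910, plus strand) it was -0.01 with a 95% confidence interval of -0.59 to 0.57, and its sign turned in 2 of 10 other settings, to 0.07 with quantile normalization and 0.08 with the connective tissue covariate. For Thrb it was 0.10 ± 0.16 (SE) with an adjusted p of 0.853 by limma, and its sign turned with the hepatocyte marker covariate, to -0.0053. At dpc16 alone Thrb was higher in zone 1 than in zone 3 without overlap, by 0.56 with an adjusted p of 0.673 by limma. Nr1i2 reached its highest values in zone 3, 51.1 FPKM in NP and 51.5 in dpc8 mice, but each time in 1 library, replicate 1, with the other zone 3 values between 12.7 and 29.1. Nr1h3 in dpc8 mice did not overlap between zones, with 35.5, 34.9 and 31.3 FPKM in zone 1 and 38.8, 53.9 and 53.1 in zone 3, and had an adjusted p of 0.587 by limma. Over the 8 receptors the median averaged difference was -0.16, beside 0.04 over all genes tested, with 2 of 8 above 0. In zone 1 against zone 2, and in zone 2 against zone 3, 0 receptors passed by limma (2 and 0 had an unadjusted p under 0.05), where 0.919% and 1.88% of all genes passed.

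**Figure D3:**
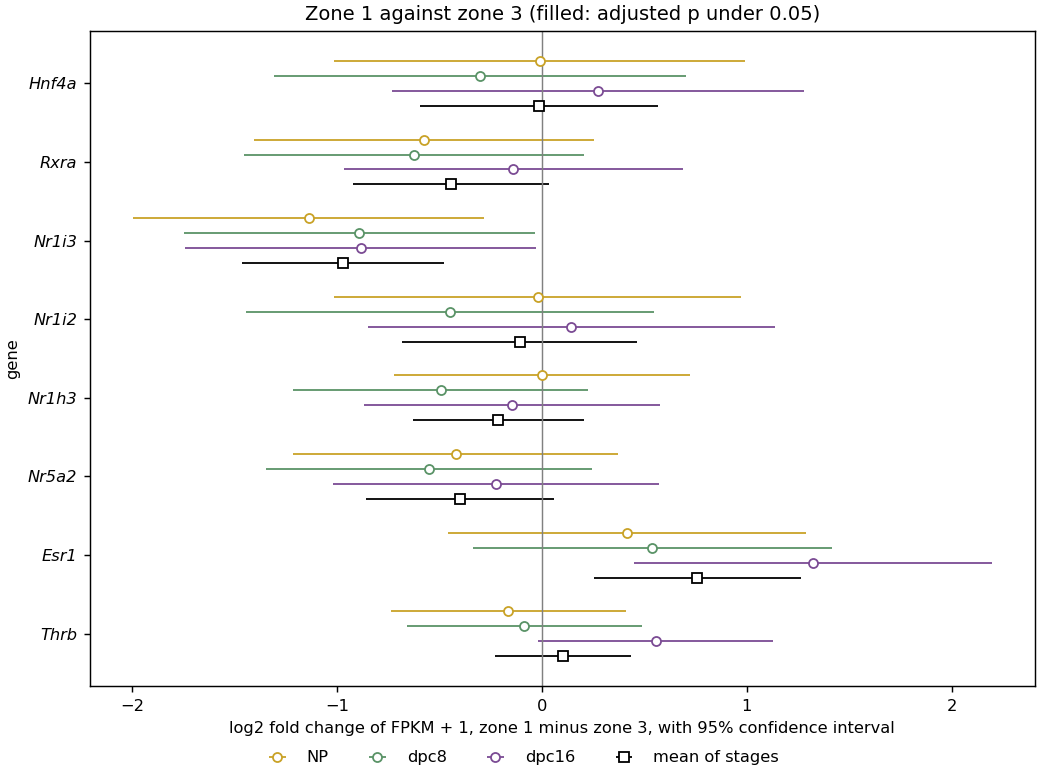
Log2 fold change of FPKM + 1 in zone 1 minus zone 3 (horizontal axis) with its 95% confidence interval for the 8 receptors (vertical axis), at each stage (circles) and averaged over the stages (squares). All symbols are drawn open, so the note on filled symbols in the title does not apply. The averaged value of Nr1i3 is the lowest, at -0.97, and the only one shown with an adjusted p under 0.05 by limma. That of Esr1 is the highest averaged value, at 0.76.

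The genes that these receptors act on were counted in the same comparison, in which 5.59% of all genes passed, from lists of known targets. Of 17 PXR and CAR targets, 4 were lower and 1 higher in zone 1 than in zone 3, and the median log2 fold change was -0.47. Cyp2a5, a coumarin hydroxylase, was 60.0 FPKM in zone 1 and 2139 in zone 3, with a log2 fold change of -5.21. Cyp2c37, a fatty acid and drug oxidase, had -3.57 and Gstm1, a glutathione transferase, -1.48. Their limma adjusted p-values were 8.26e-08, 1.49e-07 and 0.000929. The gene that was higher was Abcb1a, a drug export pump, at 1.01, and 12 of the 17 did not pass.

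Of 11 HNF4A targets, 2 were higher and 1 lower in zone 1, with Apoa4, an apolipoprotein, at 2.49 and G6pc, the glucose-6-phosphatase of gluconeogenesis, at 1.93 on the log2 scale. For Hnf4a itself no difference between zones 1 and 3 was detected, with the confidence interval given above. Of 15 LXR targets, 1 was higher and 2 lower, led by Cyp7a1, the rate-limiting enzyme of bile acid synthesis, at -2.83, with 22.7 FPKM in zone 1 and 120.8 in zone 3. Pnpla3, a lipid droplet protein, was higher in zone 1 by 2.01, and Pltp, which transfers phospholipids, was lower by -0.88. Of 9 LRH-1 targets, among them Cyp7a1 again, Gls2, a glutaminase and also a periportal marker, was higher by 4.69, and 2 were lower.

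Of 9 tested genes of thyroid hormone action and handling, 2 were lower in zone 1. Slc16a10, which carries aromatic amino acids and thyroid hormone, was 14.3 FPKM in zone 1 and 70.0 in zone 3, with a log2 fold change of -2.14. Of 6 genes induced by estrogen in other tissues, 2 were expressed enough to be tested and 0 passed by limma, with 0 at an unadjusted p under 0.05 and a median log2 fold change of 0.33 in zone 1 against zone 3. The call of Pltp was kept in 3 of 18 leave-one-out fits.

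Other nuclear receptors and their cofactors were also counted. Of 30 other nuclear receptors tested of 40 listed, 4 were lower and 0 higher in zone 1, with a median of -0.02. Esrrg, an orphan receptor related to the estrogen receptors, was 0.244 FPKM in zone 1 and 4.39 in zone 3 (log2 fold change -2.05). Pparg, the receptor of fat cell differentiation, had 2.06 and 9.93 FPKM (-1.84), and Rarb, a retinoic acid receptor, 2.40 and 4.47 FPKM (-0.71). These levels lie below the medians of the 8 receptors described here. Of 19 coregulators, 1 passed, Ppargc1a, a coactivator of gluconeogenic and mitochondrial genes, which was higher in zone 1 by 0.97 (limma adjusted p 0.0386), a call kept in 3 of 18 leave-one-out fits. This is 1 of 19, where 5.59% of all genes passed. Without the Y-positive libraries Ppargc1a was 0.93 and Rarb -0.57, and both calls were lost (limma adjusted p 0.0601 and 0.0724).

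Markers of other cell types were counted in zone 1 against zone 3 as well, averaged over the stages, where 5.59% of all genes passed. Of 6 bile duct markers tested, 4 were higher in zone 1, and of the 12 connective tissue and smooth muscle markers 2 were lower. In the stellate cell list 2 of 7 were lower, in the Kupffer cell list 1 of 8 was higher, and 0 of 8 sinusoidal endothelium markers and 0 of 4 lymphocyte markers passed by limma, with 1 and 0 at an unadjusted p under 0.05. The part of these cells in the zone differences of the receptors was not tested.

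Each pregnant stage was then compared with NP mice in the same zone, with the NP libraries shared by both comparisons. At dpc8, 0 receptors passed in zone 1, zone 2 or zone 3 or in the average of the zones, with 0, 1, 0 and 0 at an unadjusted p under 0.05 by limma. Few genes of any kind passed, 0.0309%, 0.00772%, 0.0154% and 0.108% of those tested. The averaged log2 fold changes lay between -0.24 for Nr1h3 and 0.04 for Nr1i2, with a median of -0.11 and with Esr1 at -0.23, Rxra at -0.21, Nr1i3 and Nr5a2 at -0.11, Thrb at -0.07 and Hnf4a at -0.05. The gene with the unadjusted p under 0.05 was Thrb in zone 2, at -0.59 with an adjusted p of 0.971 by limma. Its dpc8 zone 2 values were 34.3, 15.7 and 29.9 FPKM, of which the lowest was a Y-positive library.

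At dpc16, Thrb (ENSMUSG00000021779.17, chr14:17660261-18038090, plus strand) was lower than in NP mice. In zone 2 it was 38.7, 33.3 and 44.9 FPKM in NP mice and 17.7, 13.0 and 8.75 in dpc16 mice. In zone 1 it was 16.9, 29.9 and 23.9 in NP, 23.7, 29.2 and 28.9 in dpc8 and 25.6, 27.4 and 29.0 in dpc16 mice. In zone 3 it was 23.2, 32.0 and 23.2 in NP, 30.0, 25.4 and 31.4 in dpc8 and 20.4, 22.1 and 13.4 in dpc16 mice. NP and dpc16 mice did not overlap in zones 2 and 3 and overlapped in zone 1, where the dpc16 values were within the NP range. In zone 2 the means were 38.9 ± 5.81 and 13.2 ± 4.48 FPKM (SD, n = 3 each), which are the highest and the lowest of the 9 groups.

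The log2 fold change of Thrb in zone 2 was -1.54 ± 0.28 (SE), a ratio of 0.345 on the scale of FPKM + 1, with an adjusted p of 0.00265 by limma. This was 1 of 8 receptors, where 2.66% of all genes passed. Replicate 3 of dpc16 zone 2 is a Y-positive library with the lowest values of 5 of the 8 receptors, and without such libraries the change was -1.29 (limma adjusted p 0.000419). The range was -1.76 to -1.29 over 6 leave-one-out fits, and the call held in all of them and in 9 of 10 other settings. It was lost with only the 6 libraries of the groups compared, with the same fold change and an adjusted p of 0.127 by limma. The hepatocyte markers summed to 77900 to 105900 FPKM in NP zone 2 and to 59740 to 270000 in dpc16 zone 2, and the connective tissue markers to 108.7 to 265.8 and 91.2 to 4979. The sums of 2 other lists were lower in zone 2 at dpc16 without overlap, with 1 gene of each past the threshold. Pericentral markers summed to 3316 to 5651 FPKM in NP and 966.6 to 2092 in dpc16 mice, with Cyp2e1, a drug-metabolizing enzyme, at -1.61 (limma adjusted p 0.0354). Cyp2e1 makes up much of that sum, with zone 2 means of 3454 and 1147 FPKM. The list did not move as a set: averaged over the zones, Cyp1a2 and Cyp2e1 were lower at dpc16, by -1.34 and -1.26, and Slc1a2 was higher by 1.10. Their limma adjusted p-values were 0.00498, 0.00108 and 0.00979. In zone 2, Kupffer cell markers summed to 224.8 to 384.5 in NP and 55.1 to 193.6 in dpc16 mice, with Clec4f, a lectin of these cells, at -1.32 (limma adjusted p 0.0473). Stellate cell markers overlapped, at 182.7 to 332.9 and 104.4 to 201.4, with Lrat, which esterifies retinol, at -1.63 (limma adjusted p 0.0111). The part of these shifts in the Thrb difference was not tested.

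In the other zones the change of Thrb did not pass, with 0.24 in zone 1 and -0.48 in zone 3 and limma adjusted p-values of 0.81 and 0.557. The difference between zones was tested as well, in contrasts chosen after the values had been seen. The dpc16 change in zone 2 minus that in zone 1 was -1.78 ± 0.39 (SE), with an unadjusted p of 0.000165 and an adjusted p of 0.782 by limma. In zone 2 minus zone 3 it was -1.06 ± 0.39, with 0.0132 and 1. Over all genes, a difference between the zones in how Thrb changed was thus not established. The share of genes that passed was 0% and 0.0154% in these contrasts, with 555 and 320 genes at an unadjusted p under 0.05 by limma. In zone 1 minus zone 3 it was 0% for the dpc8 change (306 genes at an unadjusted p under 0.05 by limma) and 0.054% for the dpc16 change. For the dpc8 change in zone 2 minus zone 1 and in zone 2 minus zone 3 it was 0% and 0%, with 277 and 370 genes at an unadjusted p under 0.05 by limma. In these 6 contrasts 0 receptors passed, with 1 at an unadjusted p under 0.05 in zone 2 minus zone 1 at dpc8 (Thrb, -0.82) and the Thrb values above at dpc16.

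Averaged over the zones, Thrb at dpc16 was lower than in NP mice by -0.59 ± 0.16 (SE), with an adjusted p of 0.0165 by limma, and lower than in dpc8 mice by -0.52 ± 0.16, with 0.0363. Zones of the same stage may come from the same animals. With stage and replicate number as a random block, the adjusted p-values by limma were 0.0664 and 0.117, and both calls were lost. The call against dpc8 was also lost in 11 of 18 leave-one-out fits, at -0.53 to -0.44. The libraries left out in these fits were replicates 2 and 3 of zone 1 and replicates 1 and 3 of zones 2 and 3 in dpc8 mice, and replicates 1 and 2 of zone 1, replicates 2 and 3 of zone 2 and replicate 3 of zone 3 in dpc16 mice. Thrb was 1 of 8 receptors in each comparison, where 11.8% and 11.1% of all genes passed. In zone 2 alone the fold change against dpc8 was -0.95 with an adjusted p of 0.0963 by limma, which became 0.0167 without replicate 2 of dpc8 zone 2, at -1.27.

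Hnf4a had its highest values at dpc16. In zone 1 it was 154.5, 155.4 and 183.5 FPKM in NP, 121.9, 188.8 and 164.9 in dpc8 and 279.5, 302.4 and 177.1 in dpc16 mice. In zone 2 it was 233.1, 158 and 173.1 in NP, 206.3, 116.5 and 141.8 in dpc8 and 298.1, 279.6 and 53.2 in dpc16 mice. In zone 3 it was 219.9, 122.5 and 167.4 in NP, 236.4, 206.2 and 146 in dpc8 and 283.7, 292.7 and 101.4 in dpc16 mice. In each zone 2 of the dpc16 libraries were above all NP libraries, and the lowest ones, in zones 2 and 3, were Y-positive libraries. The averaged change was 0.24 ± 0.28 (SE) with an adjusted p of 0.686 by limma. Without the Y-positive libraries it was 0.59 ± 0.15 (limma adjusted p 0.0126), and with array weights 0.63 (limma adjusted p 0.0131). With the mean level of the hepatocyte markers as a covariate the sign turned, to -0.31 with an adjusted p of 0.205 by limma. Of these 9 markers 4 were higher at dpc16, among them Alb, the main plasma protein, at 1.54, and 1 was lower.

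The other receptors had no change at dpc16 that passed. Averaged over the zones, the log2 fold change was -0.56 ± 0.24 for Nr1i3, -0.54 ± 0.28 for Nr1i2 and -0.51 ± 0.24 for Esr1 (SE), with limma adjusted p-values of 0.145, 0.243 and 0.204. Nr1i3 and Nr1i2 were lower in each zone by group means, Nr1i2 with 26.95 ± 6.50, 25.9 ± 17.8 and 31.0 ± 19.3 FPKM in zones 1, 2 and 3 of NP mice and 20.1 ± 5.53, 15.4 ± 8.05 and 17.8 ± 2.49 at dpc16 (SD, n = 3 each). Esr1 in zone 3 did not overlap, with 23.6, 16.03 and 25.1 FPKM in NP and 8.56, 10.7 and 12.6 in dpc16 mice, at -0.95 ± 0.42 (SE) and an adjusted p of 0.372 by limma. In zone 1 its change was -0.05, and the dpc16 change in zone 1 minus that in zone 3 was 0.91 with an adjusted p of 0.993 by limma. Nr1h3, Rxra and Nr5a2 lay between -0.20 and 0.13. With the hepatocyte marker covariate Nr5a2 was -0.58 (limma adjusted p 0.00246), Rxra -0.63 (0.00488), Esr1 -0.72 (0.0342) and Nr1i3 -0.68 (0.0479), and each passed, where 4389 of 12952 genes passed with this covariate against 1529 without it. Esr1 also passed with array weights, at -0.59 (0.0496). The median over the 8 receptors was -0.36, beside -0.01 over all genes, with 2 of 8 above 0.

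Zone by zone, 0 receptors passed at dpc16 against NP in zones 1 and 3 by limma (0 and 1 had an unadjusted p under 0.05), where 1.37% and 1.32% of all genes passed. Against dpc8, 0 passed in zones 1, 2 and 3 by limma (0, 1 and 1 had an unadjusted p under 0.05), where 2.01%, 1.51% and 1.37% of all genes passed. The unadjusted values under 0.05 were that of Esr1 in zone 3 against NP and, against dpc8, those of Thrb in zones 2 and 3, the latter at -0.63. Nr1h3 in zone 1 was higher at dpc16 than at dpc8 without overlap, with 68.3, 40.8 and 46.6 FPKM against 35.5, 34.9 and 31.3, and Nr1i2 in zone 3 lower without overlap, with 18.6, 19.8 and 15.0 against 51.5, 25.2 and 22.9. Their limma adjusted p-values were 0.522 and 0.569. Averaged over the zones, Nr1i2 was lower at dpc16 than at dpc8 by -0.58, with an adjusted p of 0.201 by limma.

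**Figure D4:**
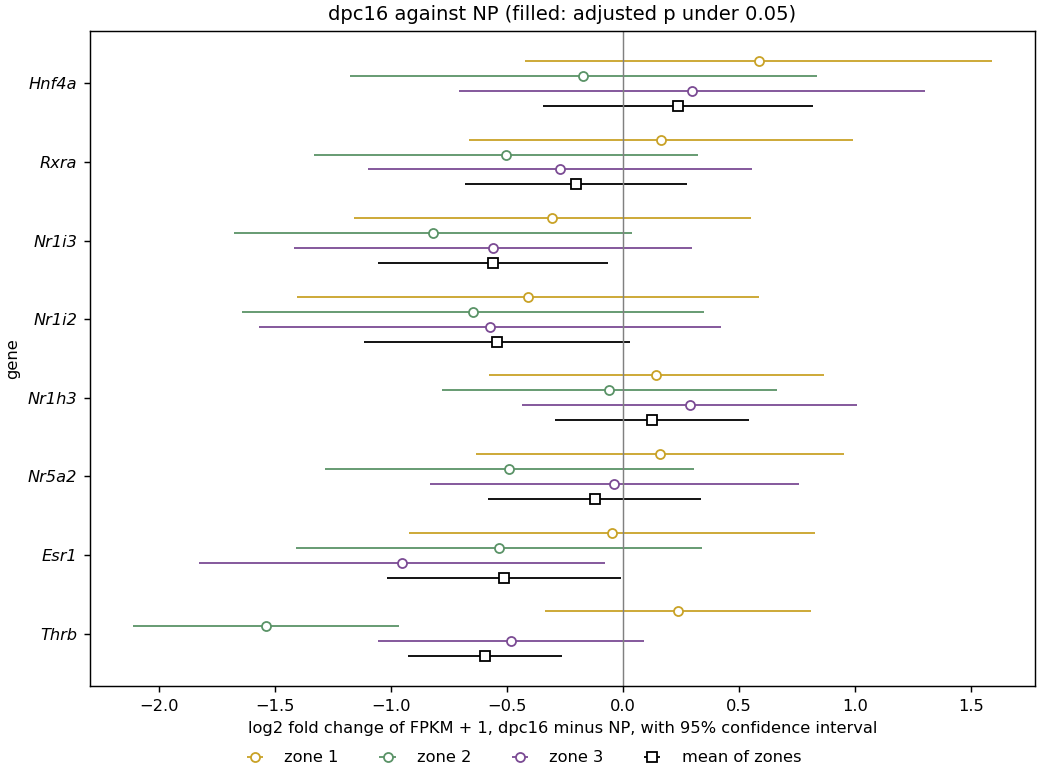
Log2 fold change of FPKM + 1 at dpc16 minus NP (horizontal axis) with its 95% confidence interval for the 8 receptors (vertical axis), in each zone (circles) and averaged over the zones (squares). All symbols are drawn open, so the note on filled symbols in the title does not apply. The values with an adjusted p under 0.05 by limma are Thrb in zone 2, at -1.54, and Thrb averaged over the zones, at -0.59.

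The same lists were counted at dpc16 against NP, averaged over the zones, a comparison in which 11.8% of all genes passed. Of 9 tested genes of thyroid hormone action and handling, 4 were lower and 0 higher, with a median of -0.72. Ttr, the carrier of thyroxine in plasma and also on the hepatocyte and HNF4A lists, went from 3387 to 1234 FPKM (log2 fold change -1.49). Slc16a10 was lower by -1.14. Both genes act in the transport of thyroid hormone, and their limma adjusted p-values were 7.72e-05 and 0.000322.

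Of 17 PXR and CAR targets, 4 were lower and 1 higher at dpc16, with a median of -0.55. Abcc3, an export pump of conjugates, went from 80.9 to 7.14 FPKM (-3.47) and Cyp2c37 from 498.5 to 103.4 (-3.14), while Gadd45b, a stress response gene, went from 3.13 to 25.3 (2.49). The receptors of this list, Nr1i2 and Nr1i3, are the ones whose averaged changes of -0.54 and -0.56 did not pass. Of 15 LXR targets, 5 were lower and 1 higher, led by Srebf1, the regulator of fatty acid synthesis, at -2.33, Cyp7a1 at -1.86 and Scd1, a fatty acid desaturase, at -1.85. Of 9 LRH-1 targets, 3 were lower, among them Gls2 at -1.99 and Cyp7a1. Nr1h3 and Nr5a2 themselves had 0.13 and -0.12. Of 11 HNF4A targets 1 was higher, Apoa4 at 2.16, and 1 lower, Ttr.

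Of the 30 other nuclear receptors, 7 were lower at dpc16 and 0 higher, with a median of -0.21, where 11.8% of all genes passed in either direction. Nr1h4, the bile acid receptor FXR, went from 68.1 to 39.5 FPKM (-0.79, limma adjusted p 0.00551), Pparg from 7.18 to 3.67 (-0.79) and Thra, the other thyroid hormone receptor, from 7.80 to 4.42 (-0.73, limma adjusted p 0.0479). Of 19 coregulators, 4 were lower, led by Ppargc1b, a coactivator related to Ppargc1a, at -1.08, Ppargc1a at -0.88 and Ncoa3, a coactivator of steroid receptors, at -0.53. With stage and replicate number as a random block, Pparg, Thra, Ppargc1b, Ppargc1a and Ncoa3 lost their calls, with limma adjusted p-values of 0.0638, 0.149, 0.0561, 0.136 and 0.127. Over all 10 other settings the calls of Thra, Ppargc1a and Ncoa3 were lost in 6, 4 and 3, and over 18 leave-one-out fits in 13, 12 and 9. Without the Y-positive libraries those of Thra and Ncoa3 were lost (0.12 and 0.0878). Kupffer cell markers also fell, 5 of 8 averaged over the zones, and the part of these cells in the receptor values was not tested.

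The genes most like each receptor over the 9 group means were sought among 8265 genes with a mean FPKM of at least 5, by Pearson's r on the log2 scale. Those of Nr1i3 were Mtus1 (0.978), Mfsd1 and Adh4 (0.972 each), and those of Esr1 were Epha1 (0.970), Gcnt2 (0.965) and Slc25a44 (0.946). For Thrb they were Itpr1 (0.966), Hyal1 (0.944) and H2-K1 (0.941), and for Hnf4a Apob (0.947), Dnaja3 and Ccdc25 (0.938 each). Rxra and Nr5a2 were among the 3 most like genes of each other, at 0.968. For Rxra the next were Reln and Arhgef3 (0.944 each), and for Nr5a2 the genes beside Rxra were Tex2 (0.970) and Pex13 (0.943). Those of Nr1i2 were Mettl7a1 (0.986), Psmb8 (0.976) and Gchfr (0.975), and those of Nr1h3 were Timm29 (0.964), Asb13 and Gak (0.958 each). The points share libraries, so these values describe the 9 means only. Over single libraries, r between Hnf4a and Rxra was 0.822 over 27 libraries and 0.533 over the 21 that are not Y-positive, and between Nr5a2 and Rxra 0.747 and 0.481. Between Nr1i2 and Nr1i3 it was 0.638 and 0.661, and between Nr1i3 and Rxra 0.557 and 0.544.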

How the data were processed

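Zones were cut from frozen liver sections by laser microdissection, and RNA of quality-selected samples was sequenced after removal of ribosomal RNA. The authors trimmed reads with cutadapt, aligned them to mm10 with HISAT2 2.1.0 and used Cuffdiff (Cufflinks 2.2.1) to obtain FPKM for protein-coding genes of GENCODE. The deposited FPKM values were used as they are. Gene positions came from GENCODE vM21, in which 21806 of 21823 identifiers were found, and promoter windows from RefSeq.

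Groups and replicate numbers came from the sample titles. Depth was estimated from the steps between low FPKM values, of which 92.9% to 97.5% per library were whole within 0.1 of a read. Genes that reached 1 FPKM in 3 or more libraries were tested on log2(FPKM + 1) with limma 3.58.1 (R 4.3.3), with 9 group means, an intensity trend and robust settings. Cuffdiff, the test used by the study, needs the reads. Tests were two-sided, with Benjamini-Hochberg adjustment over all genes of a comparison and a threshold of 0.05. Fold changes on this scale understate those of weakly expressed genes. The study describes its experiments as independent and made in different mice, but neither labels nor methods tie single libraries to animals. The other settings were a pseudocount of 0.1, no filter, quantile normalization, array weights, only the groups compared, replicate number as a fixed term, stage and number as a random block, covariates of connective tissue or hepatocyte markers, and omission of the 6 libraries with Y-linked FPKM. The procedure was tested on simulated data.

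The members and lists were chosen with earlier results of these data known. The rule for named genes took all members, the 3 most like genes of each and up to 3 genes per list past the threshold that changed the most; some genes of these lists are not reported here. The hepatocyte marker covariate and the zone 2 contrasts were chosen after seeing the data. Libraries of the same number and stage were correlated in their deviations from the group means at 0.263 to 0.863 at dpc16 (9 of 9 pairs over 0.1). These pairs include replicate 3 of zones 2 and 3, which are both Y-positive libraries, so the values do not settle whether animals were shared. The main fit has no block and treats all libraries as independent, also at dpc16. Blocked values are given where they change a call. In NP and dpc8 mice 4 and 5 of 9 pairs were over 0.1.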

Additional observations from a re-analysis of the deposited data

How the results depend on the processing

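Nr1i2, with the second lowest median level, rests on at least 273 estimated reads in each library, and 3 libraries a group limit the precision. For changes of the receptors, 441 of 490 values under 10 other settings kept their direction and side of the threshold, 4 lost a call, 29 gained one and 16 changed sign. In leave-one-out fits the numbers were 581, 11, 5 and 27 of 624. For the other genes named, 313 of 340 values were kept and 27 lost the call, and in leave-one-out fits 534 of 612 were kept and 78 lost the call, with 0 sign changes in both.

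The number of receptors past the threshold in zone 1 against zone 3, averaged, was 3 with array weights and without the Y-positive libraries, 4 with the hepatocyte marker covariate, 2 with only the groups compared, the connective tissue covariate or the random replicate block, and 1 to 2 in leave-one-out fits. At dpc16 it was 1 with array weights and without the Y-positive libraries. For dpc16 against NP it was 3, 2 and 5 in the averaged comparison with array weights, without the Y-positive libraries and with the hepatocyte marker covariate, and 0 with the random replicate block. In zone 2 it was 0 with only the groups compared and 2 with the hepatocyte marker covariate, and in zone 3 1 with the latter. For dpc16 against dpc8, averaged, it was 3, 3 and 5 in the same order, 0 with only the groups compared and with the random replicate block, and 0 to 1 in leave-one-out fits. With the hepatocyte marker covariate it was 1, 1 and 2 in zones 1, 2 and 3. In zone 2 it was 1 with array weights, with the connective tissue covariate and without the Y-positive libraries, and 0 to 1 in leave-one-out fits. Genes of any kind past the threshold moved with these settings too. In zone 1 against zone 3, averaged, 1450 passed with array weights, 1039 without the Y-positive libraries and 2285 with the hepatocyte marker covariate. The main fit gave 724. For dpc16 against NP, averaged, the counts were 2901, 2195 and 4389 in the same order, around 1529. Against dpc8 they were 3527, 2417 and 4729, around 1432. In zone 2 alone against dpc8 they were 993, 524 and 2345, around 195. The cause of these shifts was not tested.

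These values changed sign. In zone 1 against zone 3, Hnf4a was 0.0665 with quantile normalization and 0.0843 with the connective tissue covariate, and Thrb -0.0053 with the hepatocyte marker covariate. In zone 2 against zone 3, Esr1 was -0.0087 with quantile normalization and -0.0171 with the hepatocyte marker covariate. For dpc8 against NP, averaged, Thrb was 0.05 without the Y-positive libraries and 0.10 with the hepatocyte marker covariate. For dpc16 against NP, averaged, Nr5a2 was 0.0601 with array weights and 0.14 without the Y-positive libraries, Rxra 0.11 and 0.0308, and with the hepatocyte marker covariate Hnf4a was -0.31 and Nr1h3 -0.21, and Thrb in zone 1 -0.23. For dpc16 against dpc8, averaged, Nr1h3 was -0.19 with that covariate, and Hnf4a was -0.61 and passed (limma adjusted p 0.0298), while it passed in the other direction with array weights (0.60, 0.00996) and without the Y-positive libraries (0.60, 0.00978). Leave-one-out fits changed the sign of Rxra in zone 1 against zone 3 at dpc16 (-0.55 to 0.12), of averaged Hnf4a (-0.18 to 0.0745) and Nr1i2 (-0.28 to 0.0429), of Esr1 in zone 2 against zone 3 (-0.12 to 0.20), of averaged Thrb at dpc8 (-0.14 to 0.0396), and at dpc16 against NP of Esr1 in zone 1 (-0.33 to 0.27) and of averaged Nr5a2 (-0.22 to 0.0546) and Rxra (-0.31 to 0.0033).

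Genes of any kind past the threshold at dpc8 against NP were 0 to 29, 0 to 7 and 0 to 8 in zones 1, 2 and 3, around 4, 1 and 2, and 4 to 343 averaged, around 14, the last with the hepatocyte marker covariate. They ranged from 571 to 2285 in zone 1 against zone 3, averaged, around 724, and from 28 to 1937 in zone 2 at dpc16 against NP, around 345. For dpc16 the averaged counts were 881 to 4389 against NP, around 1529, and 801 to 4729 against dpc8, around 1432. The lowest counts came from only the groups compared for zone 2 and from the random replicate block for the averaged dpc16 comparisons, and the highest from the hepatocyte marker covariate. The fixed replicate block changed no call of a receptor.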

Other observations

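Other transcription factors of hepatocytes were counted beside the nuclear receptors. Of 18 of them, 0 passed in zone 1 against zone 3, averaged over the stages by limma, with 1 at an unadjusted p under 0.05, where 5.59% of all genes passed, and a median log2 fold change of -0.07. At dpc16 against NP, averaged over the zones, 1 was higher and 3 were lower, where 11.8% of all genes passed. The pioneer factors of the Foxa family moved in different directions: Foxa3 went from 26.3 to 76.4 FPKM (log2 fold change 1.37, limma adjusted p 0.00543, and 0.67 with the hepatocyte marker covariate), Foxa1 from 5.75 to 2.78 (-0.81, 0.00743) and Foxa2 from 13.9 to 7.49 (-0.77, 0.0186). The calls of Foxa1 and Foxa2 were lost with quantile normalization, with limma adjusted p-values of 0.0748 and 0.0553, and that of Foxa2 also with stage and replicate number as a random block, with 0.06.

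The receptors differed in how they moved with the hepatocyte markers over single libraries. Pearson's r with the mean log2 level of these markers was 0.757 for Hnf4a and 0.689 for Nr1h3 over 27 libraries, and 0.609 and 0.482 over the 21 libraries without Y-linked FPKM above 5. For the others it depended on the 6 libraries: over 27 and 21 libraries it was 0.542 and -0.11 for Nr5a2, 0.483 and -0.00276 for Rxra, 0.187 and -0.0868 for Esr1 and 0.177 and -0.476 for Thrb. For Nr1i3 it was -0.166 and -0.554, and for Nr1i2 -0.0117 and -0.525. These values are descriptions, since the libraries span the 3 stages and the markers were higher at dpc16.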
